A study of Mus musculus with 5 samples.

Results

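The 9 genes described here encode C-type lectin receptors of myeloid cells, namely Clec4d, Clec4e, Clec4n, Clec4a1, Clec4a2, Clec4a3, Clec5a, Clec7a and Clec12a. They were taken by name from a deposited expression table of 34240 features, and all 9 were present in it. The RNA sequencing compared 5 libraries of sorted cells from BALB/c mice aged 10 to 12 months. The 3 normal libraries came from Gr1+Mac1+ myeloid cells of bone marrow. The 2 AML libraries came from Mac+Gr1+B220+ cells from the bone marrow and spleen of mice with acute myeloid leukaemia (AML) driven by CNTRL-FGFR1, in which the tyrosine kinase FGFR1 is joined to centriolin. B220 as a sorting marker and spleen as a tissue occurred in the AML group alone, so neither can be told apart from the leukaemia. Whether each library stands for another mouse is not in the labels. The p-values therefore rest on the spread between libraries, which may be technical. The sort markers Itgam (Mac1) and Ly6g (part of Gr1) were detected in all 5 libraries, at means of 489 and 1309 RPKM in normal and 210 and 566 RPKM in AML cells. The values are RPKM (read numbers divided by exon length and by library size), a unit inferred from the numbers themselves. They allow levels of different genes to be compared per length, and no read count per gene comes with them.

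C-type lectin receptors of this kind are type II membrane proteins whose extracellular domain binds sugars or other ligands of microbes and damaged cells. Clec4d, Clec4e (Mincle) and Clec4n (dectin-2) associate with the adaptor FcRgamma, encoded by Fcer1g, and Clec5a (MDL-1) with the adaptors DAP12 and DAP10, encoded by Tyrobp and Hcst. Clec7a (dectin-1), a receptor for fungal beta-glucan, carries its own activating tyrosine motif. These activating receptors signal through the kinase SYK and, for many outputs, through the CARD9, BCL10 and MALT1 proteins. Clec4a2 (DCIR) and Clec12a (MICL, also CLL-1) carry inhibitory tyrosine motifs that recruit phosphatases, and human CLEC12A is widely used as a surface marker of AML cells.

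The receptor genes moved in different directions. Clec4d, Clec4e, Clec4n, Clec4a1, Clec4a3 and Clec5a fell in AML cells, Clec12a rose, and Clec4a2 and Clec7a did not pass the test. Falls ran from 2.80-fold for Clec5a to 19.3-fold for Clec4d, and Clec12a was 1.94-fold higher. All 9 genes reached 1 RPKM in at least 2 libraries and were tested together with 10166 features in all, on log2(RPKM + 1), with limma and Benjamini-Hochberg adjustment at a threshold of 0.05. That scale understates the change of low genes. Of the 9 receptors 7 were called, where 31.0% of all tested features were. Thus 6 of 9 receptors were lower, where 11.8% of all tested features were lower, and 1 of 9 was higher, where 19.3% of all tested features were higher. The median log2 fold change of the 9 genes was -1.62, and that of all tested features 0.12. The count of lower receptors was 3 without AML library 2 and 4 without AML library 1, and that of higher receptors was 0 when any 1 library other than normal library 3 was left out. The deposited values carry 1 decimal for 6 receptors, 5 of which fell, and 2 decimals for Clec4e, Clec4a2 and Clec12a, while 11.9% of tested features with 1 decimal and 94.5% of those with 2 were higher in AML cells. The part of this difference in the table was not tested. Rounding all values to 1 decimal changed no receptor call, but it alters these values too little to decide the question.

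**Figure D1:**
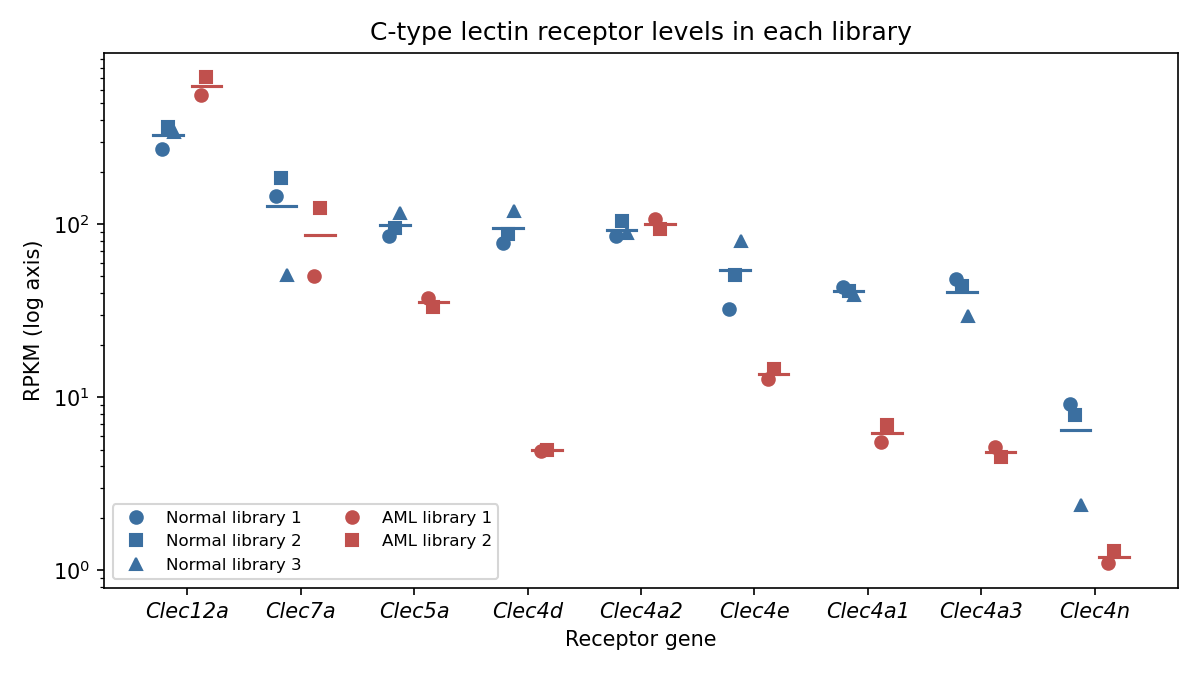
RPKM of the 9 receptor genes (logarithmic vertical axis) in 3 normal libraries (blue) and 2 AML libraries (red), ordered by normal mean, with horizontal lines at the group means. Clec4d drops from between 78.2 and 120 to between 4.9 and 5 RPKM, while Clec12a is higher in both AML libraries than in any normal library.

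Groups did not overlap for 7 of the 9 genes, where they did not for 57.0% of tested features. AML libraries lay below every normal library for the 6 genes that fell, where 22.1% of tested features did so, and above them for Clec12a, where 34.8% of tested features did so. The 250 bases upstream of the annotated start of 4 genes are shown, as examples of each outcome: Clec12a rose, Clec4d and its neighbour Clec4e fell, and Clec4a2 did neither. The sequences are from RefSeq (GRCm38.p6), run 5′ to 3′ towards the start, and were each found at exactly 1 place on mm9 chromosome 6, namely chr6:129300012-129300261 (plus strand), chr6:123211875-123212124 (plus strand), chr6:123239890-123240139 (minus strand) and chr6:123072458-123072707 (plus strand). The Clec12a and Clec4a2 windows lie within the annotated spans of these genes, upstream of a later start, and the other two lie just outside. Capitals mark the core of PU.1 sites, searched as GAGGAA, and C/EBP sites, searched as TTGCNNAA or its complement, both on either strand.
Clec12a: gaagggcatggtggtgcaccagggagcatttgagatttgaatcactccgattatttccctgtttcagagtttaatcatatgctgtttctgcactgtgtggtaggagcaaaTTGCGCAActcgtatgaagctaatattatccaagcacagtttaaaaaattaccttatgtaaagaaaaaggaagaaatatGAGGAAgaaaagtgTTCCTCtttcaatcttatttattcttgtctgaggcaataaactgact
Clec4d: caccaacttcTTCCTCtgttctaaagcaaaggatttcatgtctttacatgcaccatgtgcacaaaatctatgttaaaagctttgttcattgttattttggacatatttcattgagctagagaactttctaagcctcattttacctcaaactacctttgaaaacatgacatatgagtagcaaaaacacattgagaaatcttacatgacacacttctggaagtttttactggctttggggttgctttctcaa
Clec4e: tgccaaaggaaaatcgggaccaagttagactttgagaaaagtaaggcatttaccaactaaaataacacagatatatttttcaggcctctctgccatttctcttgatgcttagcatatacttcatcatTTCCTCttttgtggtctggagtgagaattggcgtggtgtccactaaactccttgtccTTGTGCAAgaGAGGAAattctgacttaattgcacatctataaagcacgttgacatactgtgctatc
Clec4a2: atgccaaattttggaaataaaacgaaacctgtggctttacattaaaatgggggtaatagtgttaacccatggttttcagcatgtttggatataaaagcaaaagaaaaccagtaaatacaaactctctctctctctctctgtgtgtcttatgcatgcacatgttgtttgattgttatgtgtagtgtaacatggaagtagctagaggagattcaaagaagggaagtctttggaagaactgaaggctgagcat
PU.1 and C/EBP proteins are the transcription factors that drive much of myeloid gene expression. The Clec12a window held the PU.1 core at -61 and -47 and a C/EBP match at -140, counted from -1 at the base before the start. The Clec4e window held the core at -123 and -56 and a C/EBP match at -66, and the Clec4d window held the core once, at -240. Neither pattern was in the Clec4a2 window. Taking the first listed start of each gene, 6 of the 8 receptor genes in the promoter table held the PU.1 core and 2 the C/EBP pattern, where 23.1% and 9.55% of 27025 promoters, counted the same way, did. Clec4a3, without the core at its first start, held it at -50 of its second. Genes that fell and the gene that rose both carried these letters. A match describes the sequence only and does not show that a factor bound there.

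Clec4d, Clec4e and Clec4n, the FcRgamma-associated receptors, lie side by side on chromosome 6. Clec4d (ENSMUSG00000030144, mm9 123212125 to 123225286, plus strand) stood at 78.2, 88.4 and 119.6 RPKM in normal libraries 1 to 3 and at 4.9 and 5 RPKM in AML libraries 1 and 2. Both AML values lay far below the lowest normal value and differed little from each other. The log2 fold change was -3.995 (SE 0.26, limma adjusted p = 0.00031). Its mean passed from the 95.2nd to the 32.4th percentile of tested genes.

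Clec4e (ENSMUSG00000030142, 123231807 to 123239889, minus strand), the receptor for the mycobacterial cord factor, stood at 32.6, 50.9 and 80.1 RPKM in normal and 12.8 and 14.6 RPKM in AML libraries. The normal libraries differed 2.45-fold among themselves, and the AML libraries were lower than all of them. The ratio of means was 3.98-fold (log2 fold change -1.83, SE 0.38, limma adjusted p = 0.012). The call was lost without AML library 1 (limma adjusted p = 0.078) or AML library 2 (0.085).

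Clec4n (ENSMUSG00000023349, 123179861 to 123197039, plus strand), which recognises fungal mannans, was the lowest of the 9 genes in both groups. It was listed at 9.2, 7.9 and 2.4 RPKM in normal and 1.1 and 1.3 RPKM in AML libraries. Normal library 3 was 3.83-fold below normal library 1 and lay closer to the AML libraries than to the other normal libraries. The log2 fold change of -1.62 (SE 0.47, limma adjusted p = 0.039) lost its call without any single library other than normal library 3 (adjusted p up to 0.17), and was -2.12 without normal library 3 (limma adjusted p = 0.00022).

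The order of Clec4d and Clec4e turned over. The ratio of Clec4e to Clec4d in RPKM was 0.417, 0.576 and 0.669 in normal libraries and 2.61 and 2.92 in AML libraries. The mean log2 ratio was -0.88 ± 0.35 (SD, n = 3) in normal and 1.47 ± 0.12 (SD, n = 2) in AML cells, with no overlap between groups (exact permutation test over libraries, two-sided p = 0.2, the smallest that 3 against 2 libraries allow). The ratios and shares given here were chosen after the values were seen. The ratios of Clec4e to Clec4d, and of Clec4a2 to Clec4a1 and Clec4a3, set values with 2 decimals against values with 1. The part of that format in these ratios was not tested.

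The 3 Dcir genes of the set, neighbours in the same cluster, diverged. Clec4a1 (ENSMUSG00000049037, 122871866 to 122884637) stood at 43.2, 41.2 and 39.3 RPKM in normal and 5.5 and 6.9 RPKM in AML libraries, and was the least variable of the 9 genes among normal libraries. Its log2 fold change was -2.56 (SE 0.22, limma adjusted p = 0.00052), a 6.65-fold difference. Clec4a3 (ENSMUSG00000043832, 122902533 to 122919893) stood at 48.1, 44.1 and 29.5 RPKM in normal and 5.2 and 4.5 RPKM in AML libraries, with a log2 fold change of -2.80 (SE 0.27, limma adjusted p = 0.00084). Over the 5 libraries the centred profiles of Clec4a1 and Clec4a3 were the closest of all pairs among the 9 genes, at a Euclidean distance of 0.60 in log2 units.

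Clec4a2 (ENSMUSG00000030148, 123056446 to 123094017), the inhibitory receptor DCIR, stood at 85.55, 104 and 89 RPKM in normal and 107 and 94 RPKM in AML libraries, and the groups overlapped. Its log2 fold change was 0.12, with a 95% interval from -0.44 to 0.67 (limma adjusted p = 0.73), so the limma interval excludes a fall of the size seen for Clec4a1 or Clec4a3. The sign turned to -0.042 under quantile normalization. Clec4a2 exceeded Clec4a1 by 2.26 ± 0.28 times (SD, n = 3) in normal and 16.6 ± 4.18 times (SD, n = 2) in AML cells, and Clec4a3 by 2.39 ± 0.62 and 20.8 ± 0.16 times. Neither ratio overlapped between groups (exact permutation test, two-sided p = 0.2 for each log2 ratio, again the smallest possible).

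These paralogs are similar, which bears on how reads are assigned. Of the 50-base words in annotated Clec4a2 transcripts 6.49% occurred in another gene's transcripts, most of them in Clec4a4, and none of those of the other 8 receptor genes did. Clec4a4 itself was listed between 0.5 and 0.8 RPKM in normal libraries and at 0 in both AML libraries. The treatment of reads that match several genes is not stated.

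Clec5a (ENSMUSG00000029915, 40524897 to 40535804, minus strand), the DAP12-associated receptor, lies 82336 kb from the others on chromosome 6. It stood at 85.9, 94.7 and 117 RPKM in normal and 37.6 and 33.2 RPKM in AML libraries, and the groups did not overlap. The log2 fold change was -1.45 (SE 0.24, limma adjusted p = 0.0061), and the call was lost without AML library 2 (limma adjusted p = 0.066).

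Clec7a (ENSMUSG00000079293, 129411611 to 129422790, minus strand) varied within both groups and showed no detectable difference between them. It stood at 145.5, 185 and 51.1 RPKM in normal and 50.5 and 124 RPKM in AML libraries. Normal library 3 and AML library 1 were the low libraries, and the groups overlapped. The log2 fold change was -0.49, with a 95% interval from -1.94 to 0.96 (limma adjusted p = 0.56). It was -1.04 without normal library 3 (limma adjusted p = 0.061) and 0.15 without AML library 1 (0.9).

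Normal library 3 also differed from the other normal libraries in markers of further cell types, and the receptors differed there too. Within the normal group Clec7a, Clec4n, Clec4a3 and Clec4a1 were lowest in normal library 3, Clec4d, Clec4e and Clec5a were highest there, and Clec4a2 and Clec12a lay between the other two. Summed over 7 eosinophil, basophil and mast cell genes the level was 638 and 651 RPKM in normal libraries 1 and 2, 13.95 in normal library 3, and 119 and 241 in AML libraries 1 and 2. Prg2, the eosinophil major basic protein gene, made up most of this sum, and Il5ra was at 0 in normal library 3 and AML library 1. Summed over 8 macrophage genes it was 57.2, 46.7 and 14.9 RPKM in normal and 19.4 and 21.7 RPKM in AML libraries, and over 6 erythroid genes 1530.1, 974, 101, 116 and 127 RPKM in the same order. The part of these cells in the receptor levels was not tested.

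Clec12a (ENSMUSG00000053063, 129292709 to 129315321, plus strand) was the most abundant receptor of the 9 in every library and rose further in AML cells. It stood at 273, 365 and 342 RPKM in normal and 558 and 708 RPKM in AML libraries, above the 98th percentile of tested genes in both groups (98.9 and 99.4). Both AML values exceeded every normal value. The log2 fold change was 0.95, with a 95% interval from 0.31 to 1.60 (SE 0.27, limma adjusted p = 0.038). This call was lost under upper quartile scaling (0.85, limma adjusted p = 0.062), quantile normalization (0.66, 0.08) and without a filter (0.95, 0.061), and without any single library other than normal library 3 (adjusted p up to 0.21), with the same direction each time.

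The summed level of the 9 genes was similar in both groups while its make-up differed. The sum was 802, 982 and 869 RPKM in normal and 783 and 992 RPKM in AML libraries, with means of 884 ± 91 and 887 ± 148 RPKM (SD), exact permutation p = 1. Clec12a held 34.1%, 37.2% and 39.3% of that sum in normal libraries and 71.3% and 71.4% in AML libraries. The remainder without Clec12a came to 557 ± 51.1 RPKM in the normal group and 254 ± 41.2 RPKM in the AML group (SD). Clec4d, Clec4e and Clec4n together held 15%, 15% and 23.2% in normal and 2.4% and 2.11% in AML libraries. Each of these 3 quantities separated the groups without overlap (exact permutation test, two-sided p = 0.2 for each, the smallest possible).

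**Figure D2:**
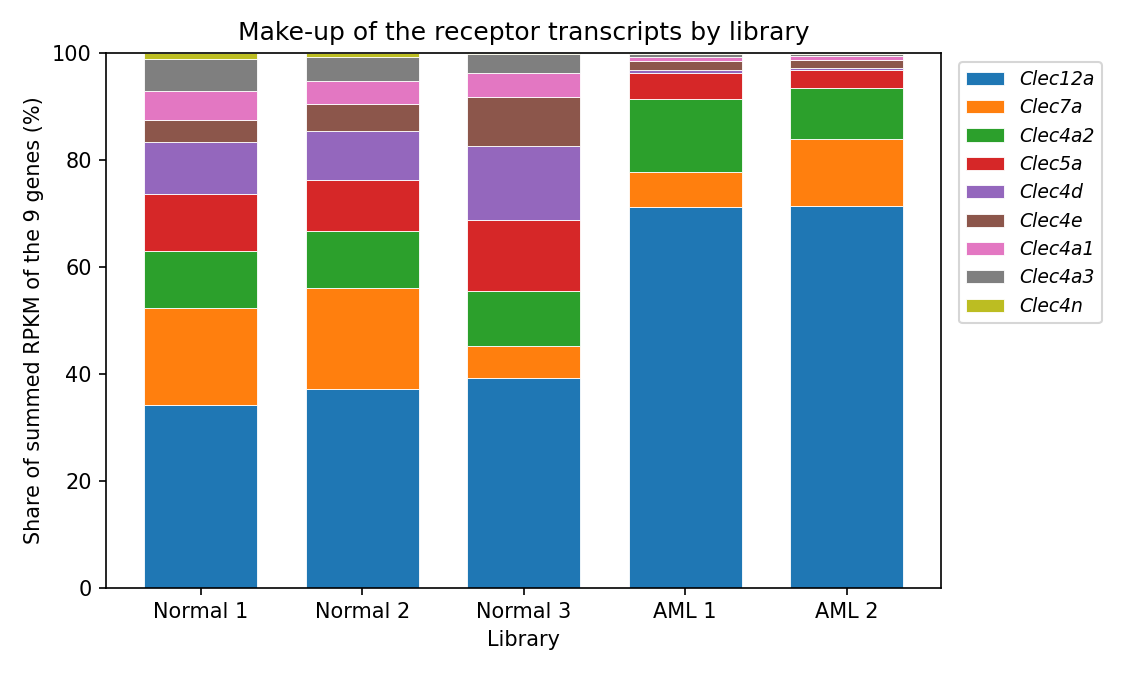
Share of the summed RPKM of the 9 receptor genes held by each gene (vertical axis, percent), as 1 stacked bar per library. Clec12a takes between 34.1% and 39.3% of each normal bar, and 71.3% and 71.4% of the AML bars.

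The order of levels changed with it. In normal cells Clec12a was followed by Clec7a, Clec5a, Clec4d and Clec4a2, whose means ran from 127 down to 93 RPKM and whose library ranges overlapped from each to the next. Clec4e, Clec4a1 and Clec4a3 followed at means from 54.5 to 40.6 RPKM, again with overlapping neighbours, and Clec4n came last at 6.5 RPKM. In AML cells Clec12a was followed by Clec4a2 and Clec7a, which overlapped, then by Clec5a, Clec4e and Clec4a1, each apart from the next. Clec4d, level with Clec5a and Clec4a2 in normal cells, overlapped in AML cells with Clec4a3, at means of 4.95 and 4.85 RPKM. Clec4n came last and apart, at 1.2 RPKM.

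Neighbouring genes of the clusters did not all follow the receptors. Between Clec4a1 and Clec4e (mm9 chromosome 6, 122871866 to 123239889) the annotation holds 10 genes, 6 of them receptors of the set, and between Clec12a and Clec7a (129292709 to 129422790) it holds 6, 2 of them of the set. Clec4b2, which lies between Clec4a2 and Clec4n and encodes a receptor of the DCAR type, stood at 7.07, 10.8 and 6.78 RPKM in normal and 73.8 and 42.5 RPKM in AML libraries. It was thus 7.09-fold higher in AML cells, whereas Clec4n, Clec4d and Clec4e beside it fell (log2 fold change 2.66, SE 0.32, limma adjusted p = 0.0019). The deposited values carry 2 decimals for Clec4b2 and Clec4e, and 1 decimal for Clec4n and Clec4d. The part of this format in the contrast was not tested. Clec9a, a receptor of dendritic cells for dead cells, was 2.71-fold higher at low levels (1.36 ± 0.23 against 3.69 ± 1.83 RPKM, SD; limma adjusted p = 0.043), a call that did not hold with no filter, under any of the 3 other scalings, or when normal library 1, normal library 2 or AML library 2 was left out (up to 0.27). Clec1a is annotated across Clec1b and Clec9a, which also overlap each other, and whether strand was used in counting is not stated, so reads of these genes may not be separable. Clec1b, the platelet receptor CLEC-2, did not pass (log2 fold change 1.63, SE 0.55, limma adjusted p = 0.061).

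**Figure D3:**
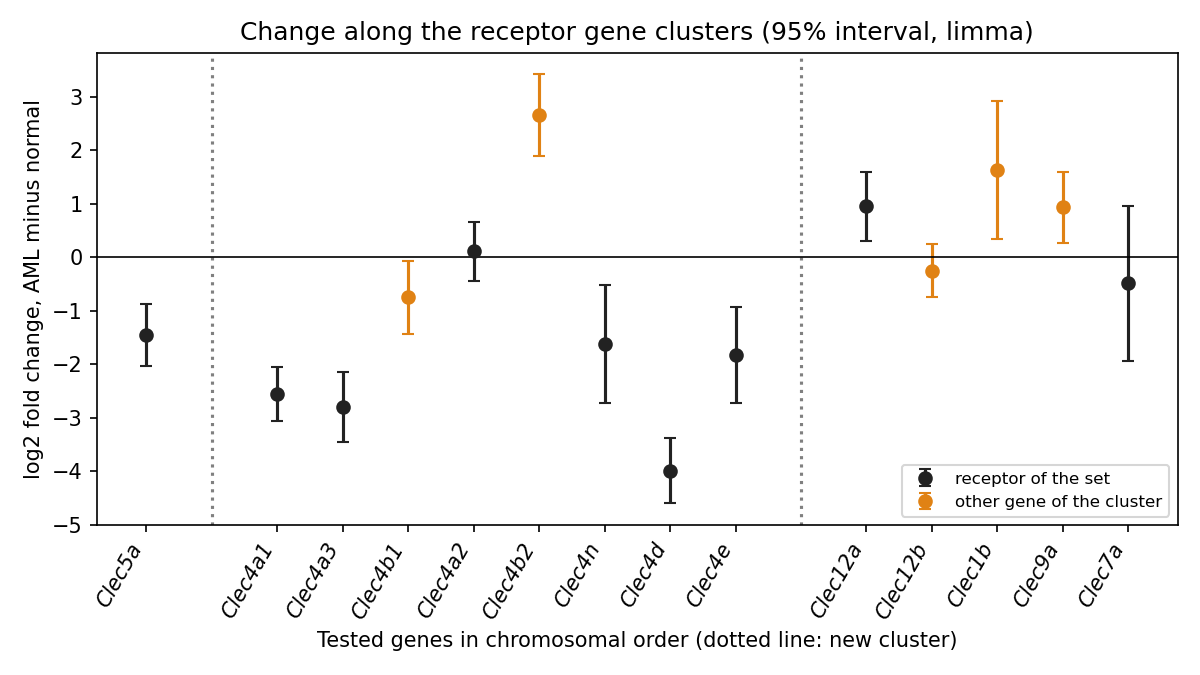
log2 fold change of AML minus normal (vertical axis, limma, with 95% intervals) for every tested gene of the receptor clusters, in chromosomal order along the horizontal axis, with receptors of the set in black and other genes in orange. Within 1 cluster Clec4b2 lies at 2.66 and Clec4d at -3.995.

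Adaptors and signalling proteins of these receptors mostly did not pass the test. Of 16 such genes 1 fell and 0 rose (limma), against 11.8% and 19.3% of all tested features, with a median log2 fold change of -0.41. At an unadjusted p under 0.05 there were 3 lower and 1 higher. Fcer1g stood at 701, 784 and 1422 RPKM in normal and 653 and 1079 RPKM in AML libraries, a log2 fold change of -0.13 (SE 0.41, limma adjusted p = 0.82). The level of Tyrobp was 1149 ± 179 in normal cells and 846 ± 96.3 in AML cells (RPKM, SD), and that of Hcst 41.1 ± 8.9 and 43.2 ± 1.49. Syk, listed under its older name Sykb, was at 112 ± 13.4 and 76.8 ± 3.32 RPKM (log2 fold change -0.53, limma adjusted p = 0.12). Both AML libraries lay below every normal library for Tyrobp, Syk, Ptpn6, Vav3, Traf6 and Bcl10, where 22.1% of tested features did so. The groups overlapped for the rest of the list. Tyrobp was called lower under quantile normalization (limma adjusted p = 0.046).

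Bcl10, which links CARD9 to MALT1, was the gene that fell, from 46.3 ± 3.39 to 23 ± 8.49 RPKM (SD; log2 fold change -1.02, SE 0.28, limma adjusted p = 0.033). Without normal library 1, without normal library 2 and without AML library 2 the call did not hold (limma adjusted p up to 0.22). Without normal library 3 the list had 4 lower genes and 1 higher gene. Card9 stood at 55.5, 62.9 and 180 RPKM in normal and 157 and 295 RPKM in AML libraries, with normal library 3 inside the AML range (log2 fold change 1.32, SE 0.55, limma adjusted p = 0.11).

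Summed adaptor transcripts and those of the receptors of the set that pair with them thus stood in different proportion. Fcer1g, Tyrobp and Hcst summed to 2159 ± 575 RPKM in the normal group and 1756 ± 396 RPKM in the AML group (SD), with overlapping groups (exact permutation p = 0.6). Clec4d, Clec4e, Clec4n and Clec5a summed to 256 ± 57.6 and 55.3 ± 1.61 RPKM. The ratio of adaptors to these receptors was 8.32, 8.08 and 8.81 in normal and 26.2 and 37.6 in AML libraries (exact permutation p = 0.2, the smallest possible). Receptors outside the set were not counted in this ratio. Among them Clec4b2, of the DCAR type, had means of 8.21 RPKM in normal and 58.2 RPKM in AML cells. The ratio therefore does not describe all receptors that may use these adaptors.

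Other C-type lectin genes showed no common direction. Of 34 further genes 17 were tested, 3 of them higher and 3 lower, where 19.3% and 11.8% of all tested features were, with a median of -0.30. Clec11a, which encodes a secreted growth factor of haematopoietic and bone cells, rose 39.9-fold (0.18 ± 0.03 against 7.19 ± 2.13 RPKM, SD; limma adjusted p = 0.00045), and Clec4b2 and Clec9a were the other two. Cd302, a type I lectin receptor, fell 11.6-fold (9.83 ± 2.14 against 0.85 ± 0.21 RPKM, SD; limma adjusted p = 0.00079). Clec10a, a macrophage lectin for galactose-type sugars, fell from 3 ± 0.2 to 0.3 ± 0.14 RPKM (SD; log2 fold change -1.62, SE 0.19, limma adjusted p = 0.0015), and Mgl2, its near relative, also fell. Mgl2 lost its call without AML library 1 and without AML library 2. Clec11a reached 1 RPKM only in AML libraries, and Clec10a and Mgl2 only in normal libraries. Each thus passed the filter through the group where it was high. Clec11a left the test when AML library 1 or AML library 2 was left out. Cd302 stood at 1 and 0.7 RPKM in AML libraries. Without normal library 3 the counts were 6 and 6, and without AML library 2 they were 1 and 2.

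Proteins that act beside the lectins, mostly surface receptors and here called partner receptors, were mostly lower. So were cytokine and early response genes induced by receptors of this kind. Of 8 tested partner receptors 5 fell and 0 rose (limma; also 0 higher at an unadjusted p under 0.05), where 11.8% and 19.3% of all tested features did, with a median of -1.42. Lgals3, which encodes the soluble lectin galectin-3, was 15.1-fold lower, Msr1, the class A scavenger receptor, 18.5-fold, Tlr2, the receptor for bacterial lipoproteins, 7.73-fold and Tlr4, the endotoxin receptor, 3.61-fold (limma adjusted p from 0.00038 to 0.0047). The remaining gene that fell was Itgam, the Mac1 sort marker of both groups (limma adjusted p = 0.020). Of 10 tested output genes 8 fell and 0 rose (limma; again 0 higher at an unadjusted p under 0.05), against the same 11.8% and 19.3%, with a median of -2.69. Nlrp3, an inflammasome sensor, stood at 15.2, 21.4 and 9.2 RPKM in normal and 0.9 and 0.8 RPKM in AML libraries, and Il1b, interleukin 1 beta, Egr1 and Nr4a1, both early response transcription factors, were 30.5-fold, 27.9-fold and 13.9-fold lower (limma adjusted p = 0.0027, 0.019 and 0.0024). Of the output genes that fell, Nlrp3, Egr1, Ptgs2 and Ccl4 were under 1 RPKM in both AML libraries and passed the filter through the normal group alone. The count of 8 thus rests in part on genes that entered the test by being high in normal cells. Tnf did not pass, at 27.5 ± 28.5 and 23.9 ± 5.59 RPKM (SD). Without AML library 1 or AML library 2 the count of lower output genes was 3, and that of partner receptors was 3 without AML library 2. Egr1 lost its call without either AML library and with no filter, and Tlr4 without AML library 2 (limma adjusted p = 0.051).

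**Figure D4:**
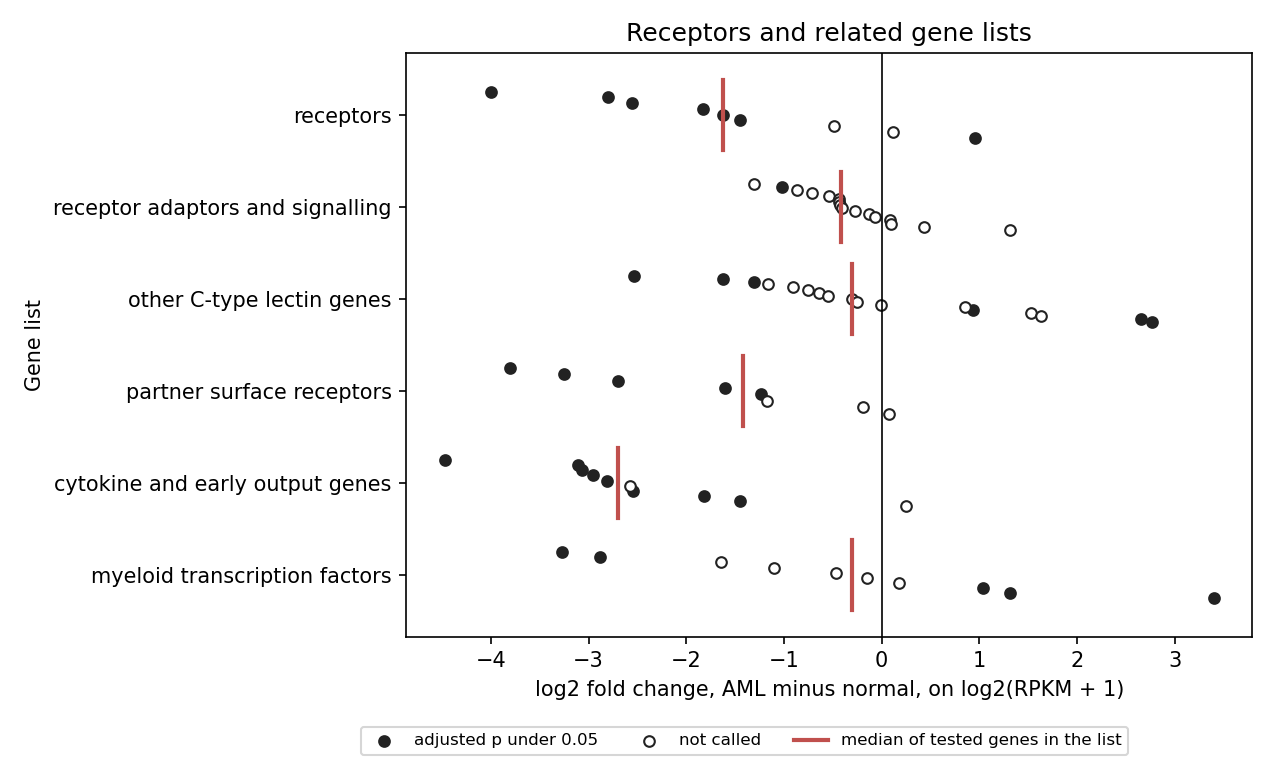
log2 fold change of AML minus normal (horizontal axis) of every tested gene in the receptor list and 5 related lists (vertical axis), with filled points for genes with adjusted p under 0.05 and red bars at list medians. The receptor median lies at -1.62 and that of the adaptor and signalling list at -0.41.

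Among 10 myeloid transcription factor genes 3 rose and 2 fell, where 19.3% and 11.8% of all tested features did, with a median of -0.31. Gfi1, a repressor needed in granulocyte formation, was 11.3-fold higher and Cebpa, a factor of early granulocyte development, 2.66-fold higher, while Klf4 and Irf8, factors of monocyte formation, were 21.4-fold and 15.1-fold lower (limma adjusted p from 0.00036 to 0.0059). Klf4 and Irf8 were under 1 RPKM in both AML libraries and passed the filter through the normal group alone. Without normal library 3 the count that fell was 4. Sfpi1, which encodes PU.1, had a mean of 264 ± 47.7 RPKM in normal and 190 ± 29.9 RPKM in AML libraries (SD) and did not pass (limma adjusted p = 0.22). Cebpb ranged from 15.4 to 109 RPKM among normal libraries and did not pass either (0.9).

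Monocyte and promyelocyte markers moved beside the receptors. The counts of markers stand against 11.8% lower and 19.3% higher among all tested features. Of 12 monocyte genes 10 were lower, and their summed level was 722 to 1046 RPKM in normal and 62 to 68.9 RPKM in AML libraries, with none at 0. Klf4 and Irf8 are in this list and in that of transcription factors. Like them, Cx3cr1 was under 1 RPKM in both AML libraries and passed the filter through the normal group alone. Of 7 promyelocyte and progenitor genes 6 were higher, and their sum was 265 to 382 RPKM in normal and 9819 to 10775 RPKM in AML libraries, where Cd34 was at 0. Cd34 was called lower and passed the filter through the normal group alone. Among 11 genes of maturing neutrophils 7 were lower, such as the collagenase gene Mmp8 (6.85-fold), the gelatinase gene Mmp9 (9.31-fold) and the chemokine receptor gene Cxcr2 (7.91-fold), with limma adjusted p from 0.0005 to 0.0019. Their sum overlapped between groups but was mostly S100a8, S100a9, Ngp and Camp, which were not called. The 8 dendritic cell genes summed to 57.2 to 186 and 48.5 to 65.6 RPKM, with Siglech and Ccr9 at 0 in AML cells, and the 6 B cell genes to 10.9 to 16.5 and 10.2 to 12.6 RPKM. Of 4 tested T and NK cell genes 3 were higher and 1 lower, and the 8 listed genes summed to 55.5 to 62.9 RPKM in normal and 570.2 to 613 RPKM in AML libraries. Cd3d, the gene that was lower (42 ± 3.55 against 16.85 ± 0.49 RPKM, SD; limma adjusted p = 0.0064), made up most of the normal sum, and Cd3e, Cd3g and Nkg7 most of the AML sum. Cd3e was under 1 RPKM in every normal library and passed the filter through the AML group alone. Cd2 and Lck stayed under 1 RPKM throughout. In bulk libraries fewer cells of a type and less RNA per cell cannot be told apart, and the part of these markers in the receptor levels was not tested.

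The genes with profiles most like the mean of the 9 receptors were Crybg3, Nod2 and Clec10a, by Euclidean distance of centred log2(RPKM + 1) over 5 libraries (0.143, 0.151 and 0.168). Crybg3 stood at 3.7, 3.7 and 2.9 RPKM in normal and 0.5 and 0.7 RPKM in AML libraries. Nod2, a sensor of bacterial cell wall fragments, stood at 4, 4.1 and 3.7 RPKM in normal and 0.6 and 0.9 RPKM in AML libraries. Crybg3, Nod2 and Clec10a were each under 1 RPKM in both AML libraries and passed the filter through the normal group alone. The mean profile averages receptors that fell, rose or did neither. Every receptor had a higher normal mean than these genes, and the profiles were centred, so the likeness is not one of level.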

How the data were processed

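RNA of sorted cells was made into libraries with a TruSeq RNA kit (Illumina), per the labels' protocols. The submitters' processing notes name mm9. The deposited values were read as RPKM computed by the authors. This unit was inferred: column totals ran from 472234 to 638584, while the products of value and exon kilobases added up to 1059377 to 1124787 per library. Aligner, counting rules and annotation: not given in the sources used here. Depth is not stated. In normal library 1 low values of genes with 1 exon were whole multiples of a read, within 0.0051 RPKM, for 96.2% of 26 values at the best of the depths tried, 30750000 reads (32.9% by chance at that depth). The same search gave 48.4% to 52.2% in the other libraries, so counting error per gene is unknown. Values had 1 or 2 decimals by feature, and 94.5% of tested features with 2 decimals but 11.9% of those with 1 were higher in AML cells. Of the 9 receptors 6 had 1 decimal.

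Columns were matched to samples by title, and groups came from the source labels (3 normal, 2 AML). Features reaching 1 RPKM in 2 or more libraries (10166) were compared on log2(RPKM + 1) with limma 3.58.1 in R 4.3.3 (variance trend, robust, two-sided, Benjamini-Hochberg adjustment over all tested features). A gene under 1 RPKM throughout 1 group could pass this filter through the other group alone. The fit was also run on values simulated with independent noise. That setting cannot address the decimal formats, the cell types in the libraries or replicates that are technical. Mean, SD and fold are of RPKM. Lists are described by counts and medians, without a set test. Of 166 list symbols, 3 were matched by RefSeq synonyms. Positions are from GENCODE M1 (mm9). The receptors and lists were chosen with earlier results of these data known. Named genes were the receptors, up to 4 called genes of largest change per list, up to 3 called cluster neighbours and the 3 nearest profiles. Other genes named (adaptors, markers, members of a count) were picked with their values known. Alternatives were 3 scalings (1 of them, equal RPKM totals, added after seeing the data), a pseudocount of 0.1, a minimum of 5 RPKM, no filter, no variance trend, rounding to 1 decimal, and leaving out each library.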

Additional observations from a re-analysis of the deposited data

How the results depend on the processing

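Clec4d, Clec4a1 and Clec4a3 kept direction and call under all 13 alternatives. Of 117 receptor results under alternatives 99 kept direction and side of the threshold, 16 lost the call and 2 turned in sign, namely Clec4a2 under quantile normalization (-0.042) and Clec7a without AML library 1 (0.15), neither of which had a call. Clec12a lost its call under upper quartile scaling (0.85), quantile normalization (0.66) and no filter (0.95), so that 0 receptors were higher under each of these 3, and Clec4n with no filter (-1.62) and equal RPKM totals (-1.93). The cause was not tested. The adaptor list had 4 lower genes under quantile normalization and 0 with no filter or equal totals. The other lectin list had 1 lower gene with a filter at 5 RPKM, where 9 were tested, and the output list 4 lower and 1 higher with no filter, where 18 were tested.

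Leaving out 1 library at a time gave 326 to 2757 higher and 348 to 2142 lower features among all tested, lowest without AML library 2 and highest without normal library 3, and 0 to 1 higher and 3 to 6 lower receptors. Log2 fold changes ran from -2.14 to -1.51 (Clec4e), -2.12 to -1.32 (Clec4n), -1.55 to -1.33 (Clec5a), -1.13 to 0.15 (Clec7a) and 0.78 to 1.12 (Clec12a). Higher and lower counts ran from 0 to 1 and 0 to 4 for adaptors, 1 to 6 and 2 to 6 for other lectins, 0 to 1 and 3 to 9 for output genes, 0 to 0 and 3 to 5 for partner receptors, and 2 to 3 and 2 to 4 for transcription factors. Of 254 results under alternatives for the other 20 genes chosen by the naming rule, 238 were kept, 16 lost the call and 0 turned. The 16 belonged to Bcl10, Clec9a, Egr1 and Tlr4. Settings in which a gene was not tested are not among the 254, and neither are genes named outside the rule. Of these Mgl2 lost its call without AML library 1 and without AML library 2. No paired analysis was possible because replicates were numbered in accession order and the sample titles of both groups have only 1 number in common, so no block could be formed. With 3 and 2 libraries and no counts, small differences are not detectable.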

Other observations

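Several lectin genes lay under the filter of 1 RPKM in at least 2 libraries and were not tested. Clec18a was listed at 0.02, 0 and 0 RPKM in normal and 0.55 and 1.27 RPKM in AML libraries. Clec4g was at 0.9, 1 and 0.1 RPKM in normal and 0.2 and 0.1 RPKM in AML libraries, with normal library 3 at the AML level. Clec3a, Clec14a and Mrc2 were listed at 0 in every library.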
